A study of Mus musculus with 8 samples.

Results

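The 10 genes described here encode the insulin-like growth factors (IGF) Igf1 and Igf2, their receptors Igf1r and Igf2r, and the binding proteins Igfbp2 to Igfbp7. They were taken as the rows of the count table whose symbol matched, 10 of 55471 genes, and each symbol had a single row. All 8 libraries came from SV-LECs, an SV40-immortalized line of mouse lymphatic endothelial cells isolated from mesenteric adventitial tissue and grown in medium with serum. 4 libraries were from cells left untreated (svLEC_ctrl) and 4 from cells exposed to 10 ng/ml TGFβ1 for 72 h (svLEC_tgfb1). All were of the SV40-immortalized genotype, and no other allele or agent is given. The study describes the 4 samples of a group as technical replicates of 1 line, so the errors and p-values cover the spread between these samples and not that between independent experiments.

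IGF1 and IGF2 are secreted peptides that signal through the IGF1 receptor, a tyrosine kinase that promotes growth and survival through PI3K, AKT and MAP kinases. The IGF2 receptor, which is also the cation-independent mannose 6-phosphate receptor, carries IGF2 and lysosomal enzymes into endosomes and does not signal as a kinase. IGFBP2 to IGFBP6 bind IGFs with high affinity and either hold them away from the receptor or prolong their life, and proteases release the ligand by cutting them. IGFBP7 is a matrix-associated relative with low affinity for IGFs that is abundant in endothelial cells and fibroblasts.

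The 4 promoter windows below belong to the members with the largest rises, Igfbp7 and Igf2r, and to Igfbp4 and Igfbp3, which fell and had more counts than Igfbp6. Each holds the 250 bases before the RefSeq start of transcription on GRCm38.p6, written 5′ to 3′ on the strand of the gene. Capitals mark CAGAC, the short element that SMAD3 and SMAD4 bind, CACCTG, an E-box bound by Snail and ZEB factors, and TATAAA, the TATA box, each on either strand, so that a match on the other strand shows its reverse complement.
Igfbp7, chr5:77408046-77408295, minus strand: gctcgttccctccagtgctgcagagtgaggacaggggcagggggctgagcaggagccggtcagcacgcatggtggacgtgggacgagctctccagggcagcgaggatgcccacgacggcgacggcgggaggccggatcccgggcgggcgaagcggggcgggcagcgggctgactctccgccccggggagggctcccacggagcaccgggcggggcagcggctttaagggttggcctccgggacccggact
Igf2r, chr17:12769707-12769956, minus strand: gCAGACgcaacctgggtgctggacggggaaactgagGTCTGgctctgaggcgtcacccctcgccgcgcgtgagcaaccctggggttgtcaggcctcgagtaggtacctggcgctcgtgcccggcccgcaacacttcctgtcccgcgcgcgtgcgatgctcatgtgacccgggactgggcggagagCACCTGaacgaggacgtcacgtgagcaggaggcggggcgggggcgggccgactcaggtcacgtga
Igfbp4, chr11:99040994-99041243, plus strand: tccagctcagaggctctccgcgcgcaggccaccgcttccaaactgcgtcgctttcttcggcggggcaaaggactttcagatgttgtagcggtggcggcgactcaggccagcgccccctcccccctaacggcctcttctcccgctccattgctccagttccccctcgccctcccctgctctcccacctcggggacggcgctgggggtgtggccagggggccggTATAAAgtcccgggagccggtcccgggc
Igfbp3, chr11:7213924-7214173, minus strand: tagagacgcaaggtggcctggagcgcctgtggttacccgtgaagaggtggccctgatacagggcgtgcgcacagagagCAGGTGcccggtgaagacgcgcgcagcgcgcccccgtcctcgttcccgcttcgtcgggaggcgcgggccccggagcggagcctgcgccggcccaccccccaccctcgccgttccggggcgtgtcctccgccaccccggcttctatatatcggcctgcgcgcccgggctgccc
CAGAC occurred at 2 places in the Igf2r window and at none in those of Igfbp7, Igfbp4 and Igfbp3, against a share of 42.2% of all 32851 windows of this length that held it. CACCTG occurred at 1 place in Igf2r and at 1 in Igfbp3 (17.2% of all windows), and TATAAA at 1 place in Igfbp4 (12.4%). The 8-base palindrome GTCTAGAC and the forkhead element GTAAACA, searched on both strands, were in none of the 14 windows that RefSeq gave for the 10 members (0.167% and 3.17% of all windows). GTCTAGAC overlaps no full copy of CAGAC. The windows of Igfbp7, Igf2r, Igfbp4 and Igfbp3 held 26, 27, 22 and 32 CG pairs, where the median of all windows was 6. Member windows not printed here held from 1 CG pair, in a window of Igf2, to 42, in that of Igf1r. The window of Igfbp6, which also fell, held 7 CG pairs, with CAGAC at 1 place and TATAAA at 1 place. These matches describe letters in these windows and are no evidence of binding.

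Total counts were between 18952504 and 26386941 per library, and values are given as CPM, each gene's count relative to the library size after TMM scaling. Of 6 TGFβ1 response genes, 5 were tested and 5 rose, where 37.6% of all genes tested rose. Tgfbi, the gene not tested, was under 1 CPM in every library. Among the 5, Ccn2, which encodes the matrix protein CTGF, rose from 219 ± 14.8 to 916 ± 51.4 CPM (SD, n = 4). The cell type markers were in part at or near 0: 6 of 8 endothelial markers, Pecam1, Cdh5, Tek, Tie1, Emcn and Cldn5, and 4 of 6 lymphatic endothelial markers, Prox1, Lyve1, Ccl21a and Reln, were under 1 CPM in every library. The endothelial markers Kdr and Eng and the lymphatic markers Pdpn and Flt4 were present, and of 7 fibroblast and mural markers only Lum and Rgs5 stayed under 1 CPM in every library, while Col1a1 was at 3459 ± 611 CPM in untreated cells. Of 6 leukocyte markers 5, and of 5 epithelial markers 2, were under 1 CPM throughout. Summed over the list, endothelial markers were at 70.2 to 78.2 CPM in untreated and 162 to 170 CPM in TGFβ1-treated libraries, and lymphatic endothelial markers at 344 to 381 and 337 to 348 CPM. Fibroblast and mural markers summed to 3293 to 4633 CPM in untreated and 5572 to 6708 CPM in treated libraries, a sum made up mostly of Col1a1. Of the 5 of them that were tested, Col1a1 and Pdgfrb rose, while Pdgfra (log2 fold change -1.47), Dcn (-1.91) and Thy1 (-1.07) fell, and the median was -1.07. Leukocyte markers summed to 6.02 to 7.86 and 15.3 to 17.4 CPM, with Cd68, the 1 member tested, at 6.96 and 15.9 CPM in the group means. Epithelial markers summed to 5.53 to 9.35 and 8.03 to 10.01 CPM, and of the 3 tested Krt8 and Krt18 rose by 1.99 and 2.47 on the log2 scale from under 1 CPM, while Krt19 fell by 0.31. Whether these shifts had a part in the IGF results was not tested.

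The groups were compared across all genes with edgeR's likelihood ratio test, and a gene was taken as changed where its false discovery rate (FDR, Benjamini-Hochberg over the 13818 genes tested) was under 0.05. Of the 10 members 8 passed the filter on low counts, each with at least 23 counts in every library. TGFβ1 raised 4 of them, Igfbp7, Igf2r, Igf1 and Igf1r, and lowered 4, Igfbp4, Igfbp6, Igfbp3 and Igfbp2. Because 75.6% of all genes tested passed the same threshold, 37.6% higher and 38.0% lower, passing it sets the IGF genes little apart from other genes, and the size of each change is the more informative value. A log2 fold change above 1 was reached by 1 of the 8 (10.9% of all genes) and one below -1 by 3 of the 8 (6.56% of all genes). In all 8 the libraries of the groups did not overlap, as in 69.8% of all genes. The median log2 fold change of the 8 was -0.25, beside -0.01 for all genes tested. In RNA from whole cultures, a change in the number of cells that express a gene and a change in RNA per cell cannot be told apart.

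**Figure D1:**
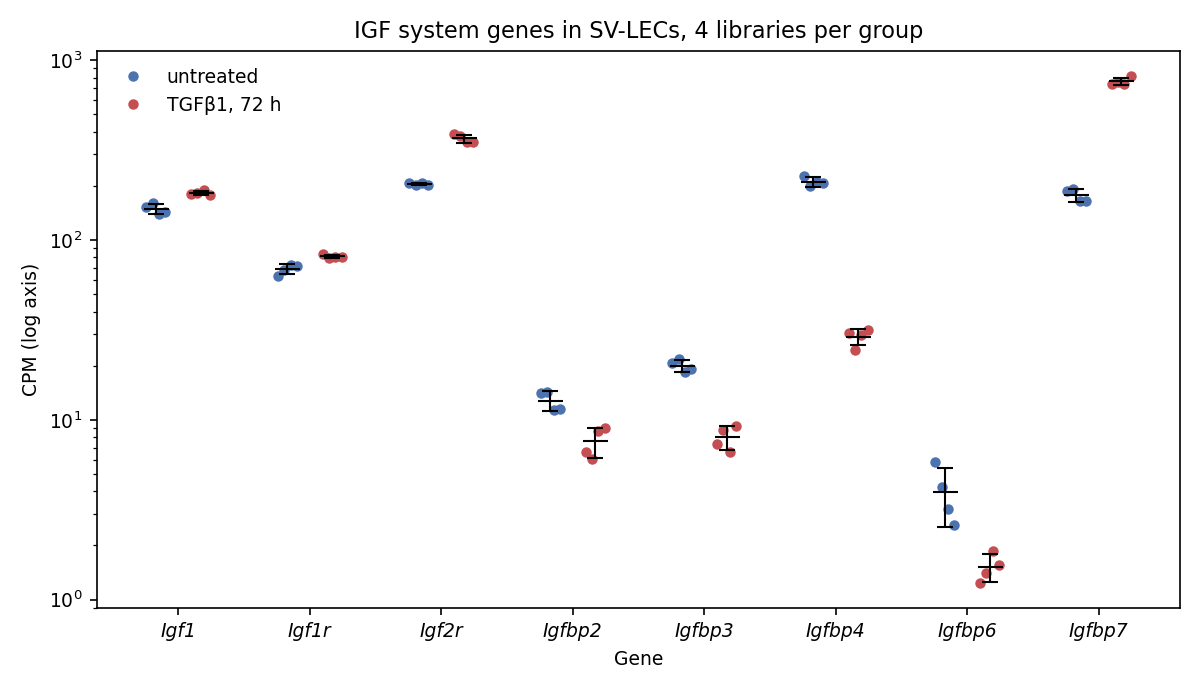
CPM of the 8 tested IGF genes on a log axis, with a point for each of the 4 untreated (blue) and 4 TGFβ1-treated (red) libraries and bars for the mean ± SD. Igfbp7 rose to between 739 and 816 CPM and Igfbp4 fell to between 24.5 and 31.5 CPM, and no gene has libraries of both groups at the same level.

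Among the ligands, Igf1 was abundant and Igf2 was nearly absent. Igf1 (ENSMUSG00000020053, chromosome 10 of GRCm38, 87858265 to 87937042) was at 153, 160, 139 and 142 CPM in the untreated libraries and at 180, 182, 191 and 179 CPM after TGFβ1. Every treated library lay above every untreated one, although the lowest treated library was only 1.12 times the highest untreated library. The means were 149 ± 9.83 and 183 ± 5.39 CPM (SD, n = 4), a log2 fold change of 0.30 (SE 0.0508, FDR = 1.28e-08 from edgeR). This was a small change among these data, since 59.6% of the genes tested had a larger one in either direction.

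Igf2 (ENSMUSG00000048583, chromosome 7, 142650766 to 142666816), the fetal growth ligand of an imprinted locus, had 9, 6, 2 and 6 counts in the untreated libraries and 1, 1, 1 and 5 counts in the treated ones, too few to be tested with the filter. The groups overlapped, since the highest treated library had more counts than the lowest untreated one. A floor of 3 counts lay between 0.113 and 0.162 CPM in these libraries. Under it were 3 of the 4 treated libraries and also the untreated library with 2 counts. Such floors cover counting error only. Of the read-length stretches of 75 bases in Igf2 transcripts, 60.3% also occurred in transcripts of Gm49394 on the same strand, which had 0 counts in every library, and 0.444% on the opposite strand of Igf2os. How reads on such shared bases were assigned is not given in the sources used here, so the low count of Igf2 is uncertain. H19, the noncoding RNA of the same imprinted domain, was at 4.18 ± 0.940 CPM before and 1.78 ± 0.297 CPM after TGFβ1 (SD, n = 4), and its log2 fold change was -1.23 (SE 0.195, FDR = 4.48e-10 from edgeR).

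Both receptors rose, and Igf2r rose more than Igf1r. Igf2r (ENSMUSG00000023830, chromosome 17, 12682406 to 12769664) was at 206, 203, 208 and 202 CPM in the untreated libraries and at 386, 379, 351 and 350 CPM in the treated ones. The untreated libraries were within 1.03-fold of each other, and the lowest treated library was 1.68 times the highest of them. The mean went from 205 ± 2.82 to 367 ± 18.8 CPM (SD, n = 4), 1.79-fold higher, with a log2 fold change of 0.84 (SE 0.0443, FDR = 2.55e-78 from edgeR). Airn, the imprinted antisense RNA whose gene overlaps Igf2r without sharing exons, was at 3.25 and 3.27 CPM in the group means (log2 fold change -0.0038, SE 0.146, FDR = 0.983 from edgeR).

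Igf1r (ENSMUSG00000005533, chromosome 7, 67952827 to 68233668) was at 63.2, 68.1, 72.6 and 71.7 CPM without TGFβ1 and at 83.1, 79.5, 80.9 and 80.7 CPM with it. The treated libraries were close together and above the untreated ones, by 1.10-fold between the nearest libraries. The log2 fold change was 0.23 (SE 0.0517, FDR = 1.12e-05 from edgeR), and 67.7% of the genes tested changed more. On a scale that allows levels of different genes to be compared, CPM per kb of exon, Igf2r was 5.38 ± 0.364 times Igf1r in untreated and 8.16 ± 0.396 times Igf1r in TGFβ1-treated libraries (SD, n = 4). The lowest treated ratio, 7.83, was above the highest untreated ratio, 5.89.

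The binding proteins moved in both directions. Igfbp7 (ENSMUSG00000036256, chromosome 5, 77349240 to 77408041), whose product is a secreted matrix protein also known as angiomodulin, was at 187, 192, 164 and 166 CPM in the untreated libraries and at 739, 756, 739 and 816 CPM in the treated ones. The lowest treated library was 3.85 times the highest untreated library. The mean went from 177 ± 14.5 to 762 ± 36.4 CPM (SD, n = 4), 4.30-fold higher, with a log2 fold change of 2.10 (SE 0.0578, FDR = 1.15e-268 from edgeR). A larger change in either direction was found in 4.53% of the genes tested. By CPM, 91.3% of tested genes had a lower mean than Igfbp7 in untreated cells and 99.3% had one after TGFβ1. The gene shares 85 exonic bases with Polr2b, an RNA polymerase subunit gene on the opposite strand, and 0.914% of its read-length stretches. Polr2b itself was at 163 and 180 CPM in the group means, a log2 fold change of 0.14 (SE 0.0431).

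Igfbp4 (ENSMUSG00000017493, chromosome 11, 99041244 to 99054392) encodes a binding protein that mostly inhibits IGF action and is the main substrate of the protease PAPP-A. It was at 228, 198, 210 and 206 CPM in the untreated libraries and at 30.5, 24.5, 29.5 and 31.5 CPM in the treated ones. The groups were far apart, the lowest untreated library being 6.30 times the highest treated one. Its mean fell from 211 ± 12.5 to 29.0 ± 3.11 CPM (SD, n = 4), 7.27-fold lower. The log2 fold change was -2.86 (SE 0.0690, likelihood ratio statistic 1608), and the FDR was smaller than the computer can represent. Only 2.30% of the genes tested changed more. In untreated cells 93.3% of tested genes had a lower mean CPM than Igfbp4, and in treated cells 50.4% did. At most 0.273% of the read-length stretches of Igfbp4 also occurred in any other gene.

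Igfbp3 (ENSMUSG00000020427, chromosome 11, 7206086 to 7213923), the main carrier of IGFs in the circulation, was at 20.6, 21.9, 18.3 and 19.2 CPM in untreated and at 7.30, 8.76, 6.64 and 9.24 CPM in treated libraries. All treated libraries were under all untreated ones. The mean fell 2.51-fold, from 20.0 ± 1.56 to 7.99 ± 1.22 CPM (SD, n = 4), with a log2 fold change of -1.32 (SE 0.106, FDR = 2.49e-35 from edgeR). Its neighbour on the chromosome, Igfbp1, had 1 count in 1 untreated library and 0 in the other 7.

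Igfbp6 (ENSMUSG00000023046, chromosome 15, 102144362 to 102149511), a binding protein that prefers IGF2, was the least abundant of the tested members and the most variable. It was at 5.83, 4.21, 3.19 and 2.59 CPM in the untreated libraries, from 121, 112, 73 and 51 counts, and at 1.24, 1.41, 1.87 and 1.55 CPM in the treated ones. The highest untreated library was 2.25 times the lowest, and the nearest libraries of the groups were 1.38-fold apart. The fall from 3.95 ± 1.42 to 1.52 ± 0.265 CPM (SD, n = 4) gave a log2 fold change of -1.37 (SE 0.244, FDR = 3.33e-08 from edgeR). The untreated libraries took the same order in Igfbp6 as on the second principal component of all genes, which held 3.26% of the variance. On it they stood at 15.4, 3.77, -4.53 and -15.6. The treated libraries, at -6.01, -10.3, 6.42 and 10.8 on that component, did not take the same order in Igfbp6. The part of the component in the spread of Igfbp6 was not tested.

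Igfbp2 (ENSMUSG00000039323, chromosome 1, 72824503 to 72852474) encodes a binding protein that carries an integrin-binding motif. It was at 14.1, 14.2, 11.3 and 11.5 CPM in untreated and at 6.65, 6.09, 8.61 and 9.04 CPM in treated libraries. The groups did not overlap, with 1.25-fold between the nearest libraries, and the mean fell from 12.8 ± 1.60 to 7.60 ± 1.45 CPM (SD, n = 4), a log2 fold change of -0.74 (SE 0.134, FDR = 6.45e-08 from edgeR). Igfbp5 (ENSMUSG00000026185, chromosome 1, 72857932 to 72874884) lies next to Igfbp2 on the other strand and had 4, 2, 5 and 0 counts in untreated and 0, 2, 0 and 2 counts in treated libraries. It was too low to be tested, and a difference was not detectable at this depth.

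**Figure D2:**
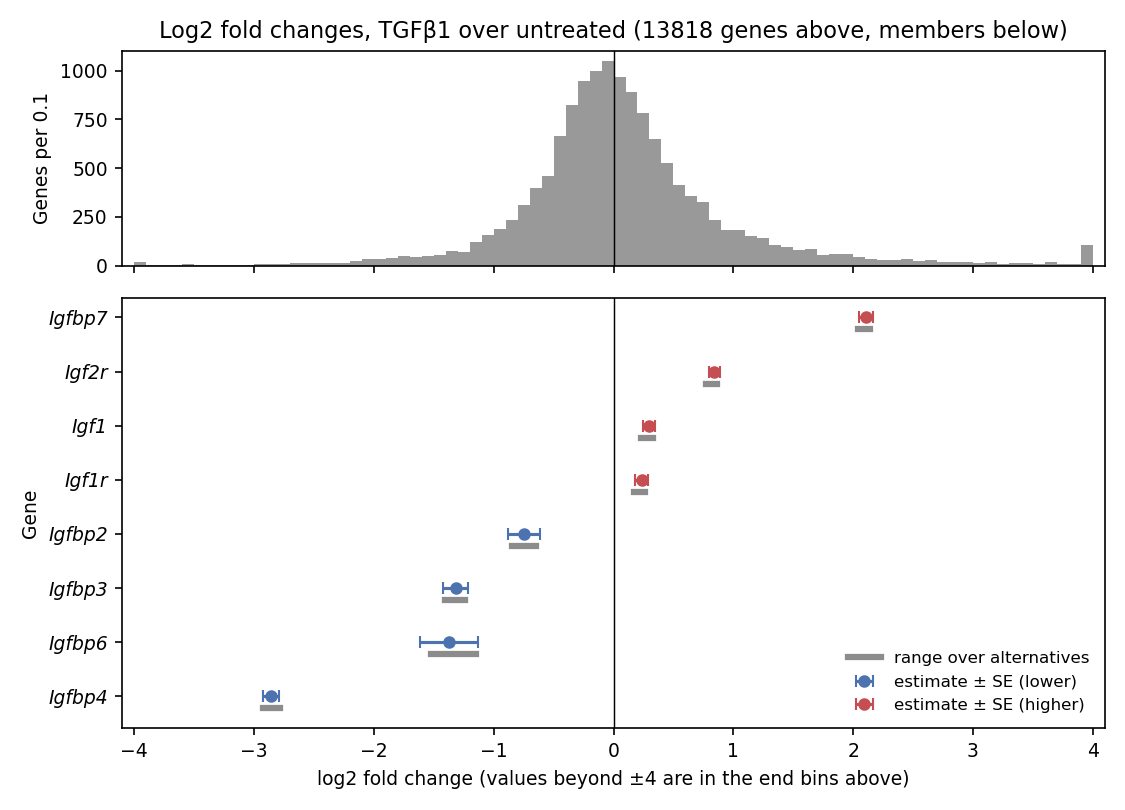
Log2 fold changes of TGFβ1-treated over untreated cells, as a histogram of all 13818 genes tested (top, bins of 0.1) and for the 8 tested IGF genes (bottom, points with SE; grey bars give the range over 18 alternative analyses). Igfbp4 at -2.86 and Igfbp7 at 2.10 lie in the tails of the histogram, and Igf1 and Igf1r lie close to its centre.

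Levels of the 10 genes were set in order by CPM per kb of exon, using the joined exon length of each gene in GENCODE M21. In untreated cells Igfbp7 was highest, at 136 to 159 CPM per kb over the 4 libraries, followed by Igfbp4 at 44.9 to 51.6, Igf2r at 21.7 to 22.3 and Igf1 at 14.0 to 16.2 CPM per kb. These ranges did not overlap. Then came Igfbp2 at 6.12 to 7.69 and Igfbp3 at 5.86 to 7.00 CPM per kb, which overlapped, and Igf1r at 3.76 to 4.33 and Igfbp6 at 2.33 to 5.24 CPM per kb, which overlapped too. Igf2 and Igfbp5 were last, with means of 0.0459 and 0.0202 CPM per kb and overlapping ranges. After TGFβ1 the order began with Igfbp7 at 611 to 675, Igf2r at 37.6 to 41.5, Igf1 at 18.0 to 19.2 and Igfbp4 at 5.55 to 7.13 CPM per kb. Igfbp4 thus went from rank 2 to rank 4, below Igf2r and Igf1. Igf1r at 4.74 to 4.95 and Igfbp2 at 3.29 to 4.90 CPM per kb followed with overlapping ranges, then Igfbp3 at 2.12 to 2.95 and Igfbp6 at 1.12 to 1.68 CPM per kb, and Igf2 and Igfbp5 were again last and overlapped. Because 1 length stands for all transcripts of a gene, these levels depend on which transcripts the cells used.

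The mix of binding protein transcripts changed accordingly. Igfbp7 made up 69.4% ± 1.43 of the summed CPM per kb of Igfbp2 to Igfbp7 in untreated libraries and 97.7% ± 0.176 in treated ones (SD, n = 4), while the share of Igfbp4 was 22.7% ± 1.71 and 1.02% ± 0.104. The sum itself was 211 ± 15.0 CPM per kb in untreated and 645 ± 31.1 in treated libraries. Without Igfbp7 it went the other way. The summed Igfbp2 to Igfbp6 was 71.1, 63.4, 62.6 and 61.4 CPM per kb in the untreated libraries and 14.0, 12.9, 15.2 and 16.4 in the treated ones. Within this sum Igfbp4 held 73.9% ± 2.66 before and 45.0% ± 3.03 after TGFβ1, and Igfbp2 held 10.7% ± 1.04 and 28.0% ± 2.73. The share of Igfbp2 was thus higher after TGFβ1 although its CPM fell. Set against Igf1, the ligand was at 0.233 ± 0.0164 of the summed Igfbp2 to Igfbp6 in untreated libraries and at 1.27 ± 0.132 of it in treated ones (SD, n = 4, from CPM per kb). These sums and ratios are descriptions of transcripts and carry no test.

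**Figure D3:**
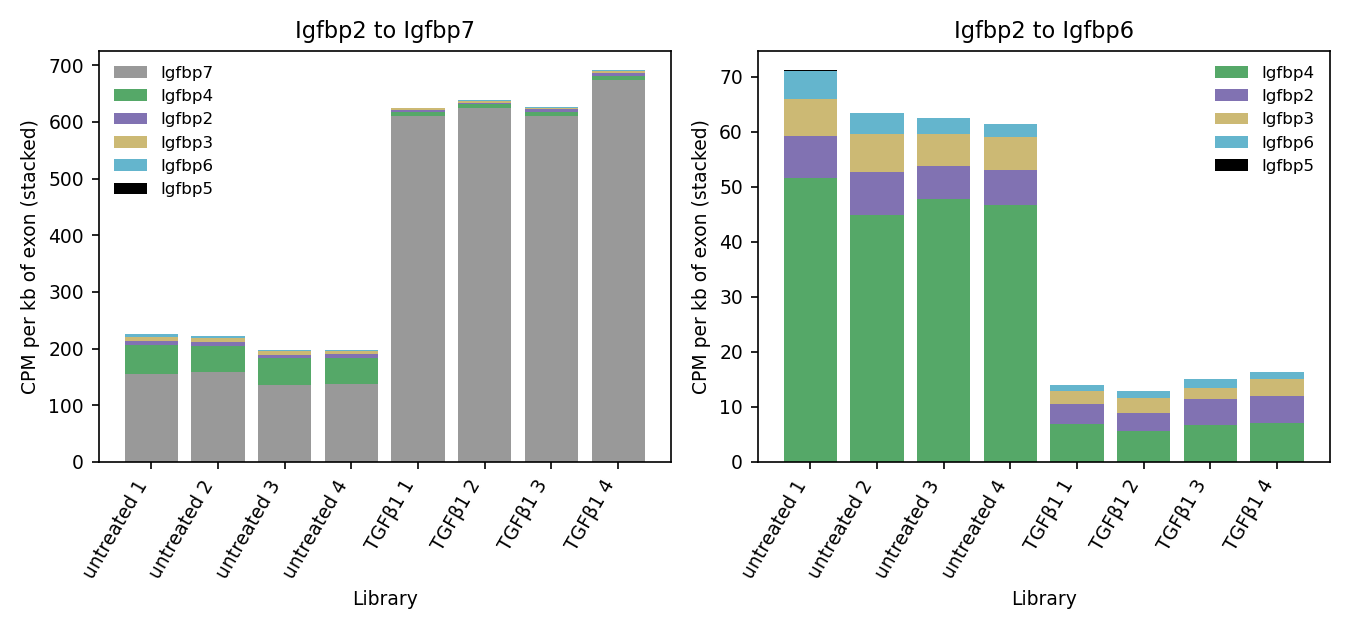
Stacked CPM per kb of exon of the binding protein genes in each of the 8 libraries, for Igfbp2 to Igfbp7 (left) and without Igfbp7 (right, on its own scale). With Igfbp7 the sum is higher in the treated libraries, at 645 against 211 CPM per kb on average, and without it the sum is lower, at 14.6 against 64.6 CPM per kb.

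Other genes of the pathway were taken from 8 lists with 65 genes in the table, of which 55 were tested. TGFβ1 raised 20 and lowered 23 of these, 78.2% together, close to the 75.6% of all genes. Their median log2 fold change was 0.02, beside -0.01 for all genes. A log2 fold change above 1 was reached by 7 of the 55 (10.9% of all genes) and one below -1 by 11 of the 55 (6.56% of all genes). The lists were chosen with earlier results of these data known, and no test of a list as a set was run. The share of tested genes that changed differed between the lists, from 42.9% of the 7 mannose 6-phosphate sorting genes to 100% of the 7 IGFBP protease and inhibitor genes, each a share of few genes.

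Of 9 genes for proteases that cut IGFBPs and for their inhibitors, 7 were tested, with 3 higher, 4 lower and a median log2 fold change of -0.71. Pappa, which encodes the secreted protease PAPP-A that cuts IGFBP4, had 27, 43, 25 and 18 counts in untreated and 109, 105, 88 and 118 counts in treated libraries. Its mean level was 1.23 ± 0.302 CPM before and 4.98 ± 0.693 CPM after TGFβ1 (SD, n = 4), and the log2 fold change was 1.98 (SE 0.183, FDR = 1.23e-29 from edgeR). Its paralogue Pappa2, whose product cuts IGFBP3 and IGFBP5, changed in the other direction. Pappa2 was at 72.4, 76.4, 64.9 and 59.6 CPM in untreated and at 19.7, 18.1, 19.3 and 17.9 CPM in treated libraries, a log2 fold change of -1.87 (SE 0.0808, FDR = 6.54e-115 from edgeR). Stc1 and Stc2, which encode the stanniocalcins that inhibit these proteases, both fell, Stc1 from 1.07 ± 0.0954 to 0.244 ± 0.133 CPM and Stc2 from 2.25 ± 0.684 to 0.898 ± 0.294 CPM (SD, n = 4). Their log2 fold changes were -2.09 (SE 0.353) and -1.36 (SE 0.279). Adam12, a membrane protease that cuts IGFBP3 and IGFBP5, was at 45.1 ± 3.05 CPM before and 119 ± 8.89 CPM after TGFβ1, and its log2 fold change was 1.40 (SE 0.0646, FDR = 3.69e-101 from edgeR). Its relative Adam9 rose by 0.35 on the log2 scale. Adam28 and Mmp7 were too low to be tested, Mmp7 with 0 counts in every library.

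Among 11 insulin receptor relatives and receptor adaptors, 10 were tested, 3 rose and 5 fell, with a median of -0.08. Insr, the insulin receptor, was at 71.0 ± 3.17 CPM in untreated and 57.9 ± 2.25 CPM in treated libraries (SD, n = 4), a log2 fold change of -0.29. The insulin receptor-related receptor Insrr rose from 8, 3, 4 and 3 counts to 30, 33, 29 and 22 counts, a log2 fold change of 2.72 (SE 0.396, FDR = 5.45e-15 from edgeR) that rests on few reads. The docking protein gene Irs1, which links the receptors to PI3K, rose by 0.69 (SE 0.0545), and the adaptor Shc1 rose by 0.24 on the log2 scale. Grb10, an imprinted gene for an adaptor that restrains insulin and IGF1 receptor signalling, was at 538, 542, 539 and 513 CPM in untreated and at 247, 243, 240 and 233 CPM in treated libraries. Its log2 fold change was -1.15 (SE 0.0392, FDR = 1.34e-183 from edgeR), and its relative Grb14 fell by 1.01 on the log2 scale. Irs4 was too low to be tested.

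All 12 genes of the PI3K, AKT and FOXO list were tested, with 4 higher, 5 lower and a median of -0.02. Foxo3, a transcription factor that AKT keeps out of the nucleus, was at 107 ± 5.62 CPM before and 209 ± 3.01 CPM after TGFβ1 (SD, n = 4), and its log2 fold change was 0.97 (SE 0.0448, FDR = 3.64e-101 from edgeR). Foxo4 fell by 1.00 on the log2 scale (SE 0.0846). The regulatory subunit gene Pik3r2 rose by 0.31, with libraries of the groups overlapping, while Pik3r1 fell by 0.58 and the kinase Akt2 fell by 0.45 on the log2 scale.

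The 12 genes listed as responsive to FOXO factors went in both directions, with 11 tested, 4 higher, 6 lower and a median of -0.60. Pdk4, a kinase that shuts down pyruvate oxidation, rose by 2.24 (SE 0.169), the ubiquitin ligase gene Fbxo32 by 1.62 (SE 0.0912) and the repressor Bcl6 by 0.55 on the log2 scale. Depp1, an autophagy regulator, had 20, 28, 17 and 16 counts in untreated libraries and 0 in every treated one, so it was at least 6.24-fold lower against the mean of the treated libraries' floors of 3 counts. Cited2, a transcriptional coregulator, was at 104 ± 16.5 CPM before and 25.7 ± 4.70 CPM after TGFβ1 (SD, n = 4), with a log2 fold change of -2.01 (SE 0.123, FDR = 2.70e-56 from edgeR), and the stress gene Gadd45a fell by 1.33 on the log2 scale (SE 0.0885). Trim63 was too low to be tested.

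**Figure D4:**
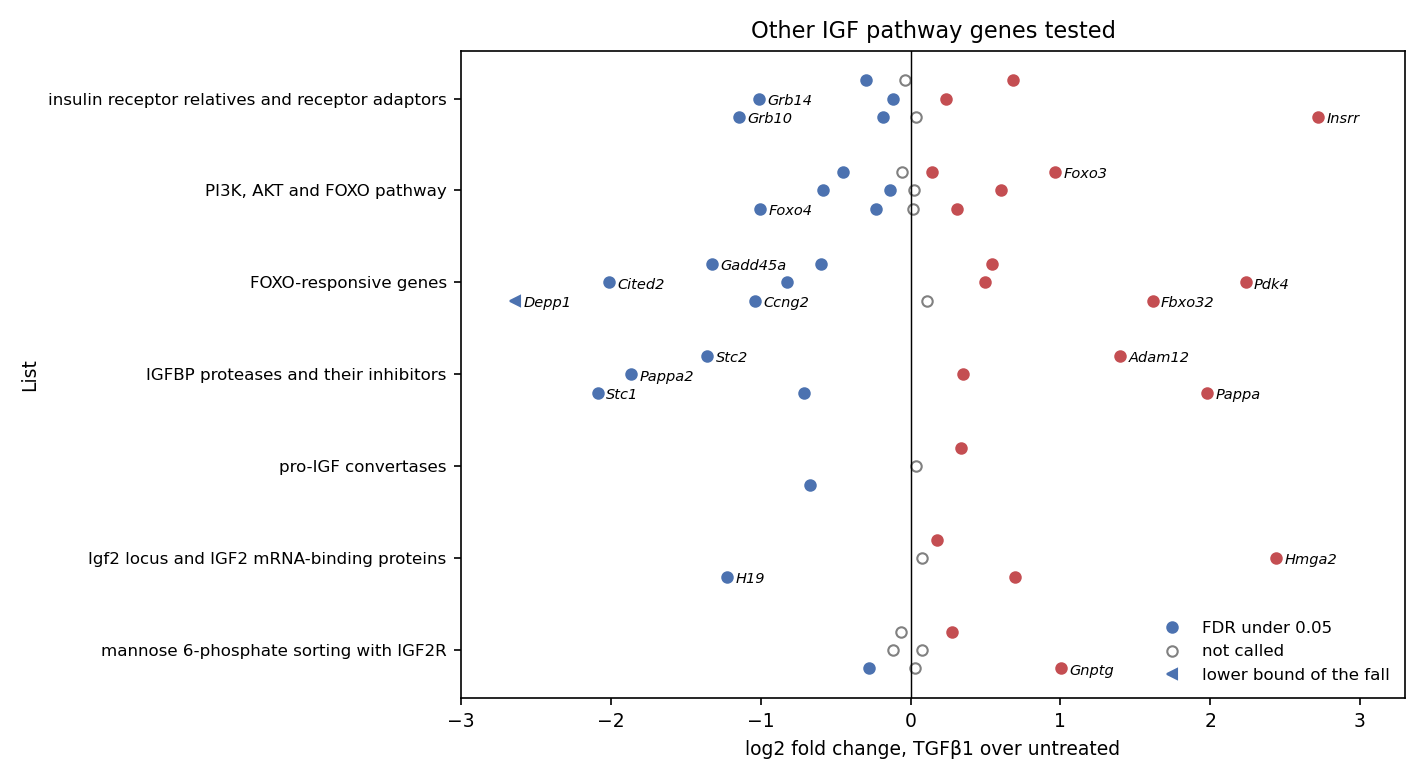
Log2 fold changes of the 55 tested genes of the other pathway lists, by list, with filled points for an FDR under 0.05, open points for genes not called, and an arrowhead for Depp1 at the bound against the floor of 3 counts. Genes of a list lie on both sides of 0, with 20 higher and 23 lower in all.

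Of 7 genes that sort lysosomal enzymes by mannose 6-phosphate together with IGF2R, all were tested, 2 rose, 1 fell and 4 were not called, with a median of 0.03. M6pr, the smaller mannose 6-phosphate receptor, was among those not called (log2 fold change -0.06, SE 0.0471, FDR = 0.230 from edgeR), and was chosen after its values were seen. Gnptg and Gnptab, which encode subunits of the enzyme that adds the tag, rose by 1.01 (SE 0.0729) and 0.28 (SE 0.0594) on the log2 scale, and the sorting adaptor Gga1 fell by 0.27. Among 3 convertase genes, Furin, whose product processes many proproteins, rose by 0.34 (SE 0.0582) and Pcsk6 fell by 0.67 (SE 0.0586) on the log2 scale.

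The list of Igf2 locus genes and IGF2 mRNA-binding proteins, which also held Hmga2, gave 5 tested genes of 8. Of these 3 were higher, Hmga2, Igf2bp3 and Igf2bp2, and 1 was lower, H19, with a median of 0.18. Hmga2, a chromatin protein gene linked to growth, was at 5.44 ± 0.722 CPM before and 29.6 ± 1.76 CPM after TGFβ1 (SD, n = 4), with a log2 fold change of 2.44 (SE 0.0945, FDR = 1.57e-158 from edgeR). Igf2bp3 and Igf2bp2, which encode proteins that bind Igf2 mRNA, rose by 0.70 (SE 0.209) and 0.18 (SE 0.0515) on the log2 scale. In Igf2bp3 the libraries of the groups overlapped. Igf2os, Ins2 and Lin28b were too low to be tested, as were all 3 of the other IGF binding protein genes, Igfbp1, Igfals and Igfbpl1.

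Likeness to the members was described by Pearson's r of log2 CPM over the 8 libraries, which mostly reflects the difference between the groups. The 3 genes most like Igfbp7 were Fstl3, Col11a1 and Ephb2, each with r = 0.999, and 573 genes had r above 0.99. Those most like Igfbp4 were Lmnb1 (r = 1.000), Casp9 (r = 1.000) and Dlat (r = 0.999), among 730 genes with r above 0.99. Many genes therefore followed the pattern of each about as closely.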

How the data were processed

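RNA of SV-LECs, untreated or exposed to TGFβ1, was made into stranded poly(A) libraries, 4 per group, and read from one end over 75 bases. Per the labels, the submitters' processing notes name bcl2fastq 2.20.0.422, STAR 2.7.3a and featureCounts 1.5.1 and the build GRCm38, and the authors deposited raw counts of reads per gene. The annotation release and the strand setting of the counting are not given in the sources used here, so reads of overlapping antisense genes may not be told apart.

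Columns were matched to samples by title. Low genes were removed by filterByExpr of edgeR 4.0.16 (R 4.3.3), library sizes were scaled by TMM, and groups compared with glmFit and glmLRT, the test that the study names, on all 13818 genes passing the filter. FDRs are Benjamini-Hochberg values over these genes. Log2 fold changes carry the default prior count of 0.125, and SEs come from the Fisher information of each fit. CPM per kb used joined exon lengths of GENCODE M21. Levels, shares and ratios carry no test. The pipeline was tested on simulated data. Libraries within a group were not copies of each other, with more spread than counting alone gives (chi-square per degree of freedom 2.37 to 7.84). Total counts of 18952504 to 26386941 per library put 3 counts at 0.113 to 0.162 CPM.

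The text names all 10 members, up to 3 called genes per direction of each pathway list, those too low to be tested, M6pr (chosen after its values were seen), overlapping antisense genes and the 3 genes most like the members with the largest rise and fall. Some genes of the lists are not reported here by name. Members and lists were chosen with earlier results of these data known. Promoters came from RefSeq (GRCm38.p6), which matched 10 of 10 members with 14 windows. Alternatives were the quasi-likelihood test, DESeq2 1.42.0, DESeq2 size factors, total counts, no filter, keeping genes that reached 1 CPM in 4 or more libraries, glmTreat against 0.5, a stricter FDR of 0.01, a prior count of 2, the replicate block and each library left out.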

Additional observations from a re-analysis of the deposited data

Results flagged for a closer look

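In the TGFβ1-treated group, Igf2 in replicate 4 stood apart from the other 3 libraries, at 0.194 CPM against 0.0487 to 0.0541 CPM. The values rest on 5 counts against 1 count in each of the other 3. Dixon's critical value for the gap of the outermost library was applied to 20 sets of 4 libraries, the 10 genes in each group. Only this set exceeded it (gap to range ratio 0.963). For continuous, normally spread values chance gives about 1 in 20. That rate does not hold for this set, where 3 of the 4 libraries had the same count.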

How the results depend on the processing

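Under 18 alternative settings no member changed direction. The stricter FDR and glmTreat kept the fold changes of the main fit, so they could not change a direction. With glmTreat, which asks whether a log2 change exceeds 0.5, 2 of the 4 higher members remained, Igfbp7 and Igf2r, and Igf1 (0.30) and Igf1r (0.23) were no longer called (FDR = 1 from edgeR for both), while all 4 lower members were called. The same test left 10 higher and 14 lower genes of the other pathway lists, and 4149 in place of 10449 genes of all tested. Elsewhere the other lists gave 19 to 20 higher and 21 to 26 lower genes. Without the filter on low counts 5 members were lower, because Igf2 was then tested (log2 fold change -1.44, FDR = 0.0388 from edgeR), and Igfbp5 was not called (FDR = 0.200 from edgeR). The replicate numbers are not stated to pair libraries. Deviations of same-numbered libraries from their group means correlated at -0.103, -0.0594, -0.0336 and -0.193 over 13818 genes. Those of differently numbered libraries correlated at -0.227 to 0.250. Such correlations cannot show whether same-numbered libraries were handled together. With the replicate block 4 members were higher and 4 lower, with 20 and 23 genes in the other lists, and 10152 genes called in all. Without 1 library at a time 4 members were higher and 4 lower in every fit, with log2 fold changes of -2.90 to -2.79 for Igfbp4, 2.07 to 2.14 for Igfbp7 and -1.52 to -1.14 for Igfbp6. Depth limits Igf2 and Igfbp5, and the technical replicates limit every p-value.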
